A study of Mus musculus with 42 samples.

Results

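Hyaluronan is a long, unbranched sugar chain that hyaluronan synthases spin out through the plasma membrane into the matrix around stromal cells, where it holds water and gives soft tissue its volume. Other proteins bind the chains and tie them into a network, and secreted or membrane-bound enzymes cut them into fragments that receptors such as CD44 take up. In the gut wall most of this matrix is made by fibroblast-like cells under the epithelium, and it is known to change in inflamed colon.

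The genes described here are 8 that make, organise or break down hyaluronan, out of 19232 genes with a named row in any of the 12 expression tables of the study. They are the synthases Has1, Has2 and Has3, the hyaluronan-binding proteins Tnfaip6 and Vcan, the hyaluronidases Hyal1 and Hyal2, and Cemip, a hyaluronan-binding protein needed for hyaluronan breakdown by skin and synovial fibroblasts. The set was chosen by the rise of Cemip in the proximal GA3T comparison, so every value of that comparison is given below as a description, without a test. All 8 genes had a row and passed the minimum mean of 10 normalized counts in each of the 4 stromal tables. In goblet cells 4 genes passed in each table, and in organoids 5 genes passed in each.

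The main samples were stromal cells sorted by Gli1-driven tdTomato from the proximal and distal colon 30 days after tamoxifen. All mice carried Gli1-CreERT2, a Cre recombinase under the control of the Gli1 gene that tamoxifen switches on, and the Rosa26-tdTomato reporter. GWTT mice had no further change and were the controls. GS4T mice also had Smad4 fl/fl and lost Smad4, the shared mediator of BMP and TGF-beta signals, in Gli1+ cells. GA3T mice had Alk3 fl/fl and lost Alk3, a BMP receptor whose row is named Bmpr1a. GWTM2, GS4M2 and GA3M2 mice carried the Muc2-mCherry reporter with the corresponding alleles, so that goblet cells were sorted while the deletion lay in the stroma. Colonic organoids, which are epithelium without stroma, were labelled WT and received no cytokine, 10 nM IL-1a plus IL-1b (written IL-1 here) or 10 nM IL-17A for 12 or 72 h. Each mouse group had 2 libraries and each organoid group 3 by its labels, but 2 untreated organoid libraries stand under both a 12 h and a 72 h label. The mice were of both sexes and were young adults. The sources used here do not state whether a library came from 1 mouse or several, so p-values measure only the spread between these libraries.

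Several libraries stood apart. Stromal libraries held 14222902 to 23686940 reads. Smad4 was lower in both GS4T libraries of each segment, at 705 and 835 against 1604 and 1673 normalized counts in the proximal colon and at 680 and 1171 against 1781 and 1703 in the distal colon. Bmpr1a was lower in GA3T, at 2233 and 1842 against 2960 and 3220 in the proximal colon and at 2203 and 2043 against 3359 and 3485 in the distal colon. Gli1 itself was at 23.9 in the second proximal GS4T library and at 34.7 in the second proximal GA3T library, against 642 to 1864 in all other stromal libraries. GWTT Proximal 1, GA3T Proximal 1 and GA3T Distal 1 were male by Xist and chromosome Y reads and the other 9 stromal libraries were female. All 9 stromal markers were present in every stromal table, and other cell types were present too. The summed level of 8 macrophage markers was 3098 to 4894 normalized counts in GWTT and 15067 to 25571 in GS4T proximal cells, and 9770 to 11527 against 18528 to 33305 in distal cells. In the GA3T tables it was 3259 to 5146 against 14198 to 25196 in proximal and 11118 to 13150 against 13726 to 18869 in distal cells. The summed level of 6 epithelial markers was 356 to 8910 in GWTT and 20453 to 26541 in GS4T proximal cells, and 1059 to 2904 against 11159 to 22156 in distal cells. In the GA3T tables it was 374 to 9368 against 9453 to 13619 in proximal and 1208 to 3305 against 8064 to 18757 in distal cells. No marker of either list was absent from a stromal table. The summed level of 6 neutrophil markers was 79.6 to 239 in GWTT and 1393 to 1447 in GS4T proximal cells and 228 to 249 against 4042 to 7607 in distal cells. In the GA3T tables it was 83.8 to 251 against 868 to 1760 in proximal and 260 to 284 against 1190 to 2234 in distal cells. Cxcr2 had no row in the distal GA3T table, so that sum lacked it. The summed level of 6 lymphoid and plasma cell markers was lower without overlap in all 4 stromal comparisons. It was 26228 to 45658 in GWTT and 6884 to 13953 in GS4T proximal cells, and 56191 to 77059 against 1806 to 7365 in distal cells. In the GA3T tables it was 27593 to 47993 against 15751 to 16172 in proximal and 64103 to 87694 against 31514 to 36807 in distal cells. Single markers of this list did not all follow the sum. Positive changes were seen in 0 of 5 tested in proximal GS4T and 1 of 5 in distal GS4T cells. They were seen in 1 of 5 in proximal GA3T cells, where Ms4a1 had no row, and in 3 of 6 in distal GA3T cells. The part of these cells in the results below was not tested, and in bulk samples fewer cells of a type and less RNA per cell cannot be told apart.

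The same GWTT libraries served both knockouts of a segment, at slightly different scales in each table, so the GS4T and GA3T values of a segment are given side by side and are not independent of each other. Every proximal GS4T test, and the segment difference, therefore shares control libraries with the choosing contrast and is not independent of it. Values are normalized counts, changes are log2 differences of the normalized count plus 1, and a gene was called when the adjusted p of limma over all genes was under 0.05 and the change at least 1 in size.

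The sequences upstream of Cemip, Tnfaip6 and Has1 are shown because these genes differed between groups and this is where their transcription starts. Has2 and Has3 are named only, since the sequence table used held 6 of the 8 genes. They are the 250 bases before the RefSeq start of each gene in GRCm38, 5′ to 3′ on the gene's own strand, with matches to 4 searched motifs in capitals. Cemip lies on the minus strand and the window is chr7:84086506-84086755. Tnfaip6 lies on the plus strand with the window chr2:52037863-52038112, and Has1 on the minus strand with the window chr17:17855189-17855438.

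Cemip: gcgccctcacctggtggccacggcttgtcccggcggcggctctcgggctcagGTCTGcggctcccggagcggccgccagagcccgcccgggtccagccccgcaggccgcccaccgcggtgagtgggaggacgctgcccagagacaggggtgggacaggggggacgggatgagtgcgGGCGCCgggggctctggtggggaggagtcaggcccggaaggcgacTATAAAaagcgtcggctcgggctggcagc

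Tnfaip6: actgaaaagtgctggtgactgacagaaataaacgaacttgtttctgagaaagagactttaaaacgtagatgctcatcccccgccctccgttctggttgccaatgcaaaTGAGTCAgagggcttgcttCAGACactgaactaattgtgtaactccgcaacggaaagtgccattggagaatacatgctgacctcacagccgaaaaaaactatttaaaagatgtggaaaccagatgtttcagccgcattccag

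Has1: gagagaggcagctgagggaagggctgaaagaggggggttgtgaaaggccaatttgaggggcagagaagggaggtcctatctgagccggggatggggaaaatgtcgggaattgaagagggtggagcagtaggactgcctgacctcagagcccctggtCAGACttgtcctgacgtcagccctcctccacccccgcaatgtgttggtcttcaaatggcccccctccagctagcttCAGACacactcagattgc

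The motifs, searched on both strands, were TATAAA, the AP-1 site TGANTCA, the Smad box CAGAC and the Smad1/5 box GGCGCC. The Cemip window held TATAAA at 29 to 24 bases before the start, GGCGCC at 74 to 69 and a Smad box on the other strand, written GTCTG, at 198 to 194. The Tnfaip6 window held an AP-1 site at 142 to 136 and a Smad box at 123 to 119. The Has1 window held a Smad box at 94 to 90 and another at 18 to 14. Of 32851 promoter windows of this length, 12.4% held TATAAA, 6.75% the AP-1 site, 42.2% the Smad box and 9.59% the Smad1/5 box, so the Smad box is common. An NF-kB consensus, present in 3.90% of windows, was found in the Hyal2 window and not in the other windows of these genes. Vcan had no match and Hyal1 had 1 Smad box. These matches describe letters only.

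Has1, which lies on chromosome 17 at 17843323 to 17855205 on the minus strand, encodes a synthase whose gene is switched on quickly by inflammatory signals. In the proximal colon Has1 was at 9130 and 5145 in GWTT cells and at 1028 and 2002 in GS4T cells. Both GS4T libraries lay below both controls, and the change of -2.26 (SE 0.41, limma adjusted p = 0.027, n = 2 per group) was called. In the distal colon Has1 was at 2897 and 5133 in GWTT cells and at 640 and 766 in GS4T cells. Has1 was lower here by 5.71-fold in mean level, with a change of -2.46 (SE 0.27, limma adjusted p = 0.0039), and it was called under all alternatives. The proximal call was lost without GS4T Proximal 1, at -1.77 with adjusted p = 0.12, and without GS4T Proximal 2, at -2.74 with adjusted p = 0.062.

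In the GA3T tables both knockout libraries lay below both controls for Has1 in the proximal colon only. A difference between segments was not tested for GA3T. Has1 was at 9606 and 5409 in proximal GWTT cells and at 3899 and 1550 in proximal GA3T cells, a difference of -1.55 that is part of the choosing contrast. In the distal colon Has1 was at 3305 and 5841 in GWTT and at 3380 and 5666 in GA3T cells. The distal groups overlapped fully, with a change of -0.01 and a 95% interval of -0.91 to 0.90.

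Has2 is the synthase best known for hyaluronan in development and in fibroblasts, and it lies on chromosome 15 at 56665627 to 56694539 on the minus strand. In the proximal colon Has2 was at 302 and 283 in GWTT cells and at 1095 and 1322 in GS4T cells. Both GS4T libraries lay above both proximal controls, and the change of 2.04 (SE 0.14, 95% interval 1.67 to 2.40, limma adjusted p = 0.0052) was called, and it remained called in every alternative. In proximal GA3T cells Has2 was at 593 and 819 against 318 and 297, a difference of 1.18. In the distal colon Has2 was at 1076 and 1406 in GWTT and at 1118 and 916 in GS4T cells, which overlap, with a change of -0.28 (95% interval -0.71 to 0.15, limma adjusted p = 0.29). Distal GA3T cells held 640 and 1678 against 1227 and 1600 in the controls, a change of -0.44 (95% interval -1.59 to 0.72).

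The Has2 response differed between segments. The change in proximal GS4T cells minus the change in distal GS4T cells was 2.32 (SE 0.24, limma adjusted p = 0.045), and Has2 was 1 of 29 genes called among 15314 genes (0.189%). Without GWTT Proximal 1, GS4T Proximal 1, GS4T Proximal 2, GWTT Distal 1, GWTT Distal 2 or GS4T Distal 2 the value stayed between 2.13 and 2.51 but the call was lost, with adjusted p up to 0.21. edgeR gave an adjusted p of 0.054. No other member was called for this difference (Has1 0.20, Tnfaip6 -0.48, Hyal1 0.65, Hyal2 0.45, Vcan 0.43, Has3 0.10). The summed level of 5 smooth muscle markers was also higher in proximal GS4T cells and overlapped between the distal groups. It was 5326 to 7387 normalized counts in proximal GWTT and 15547 to 19745 in proximal GS4T cells, and 15386 to 16145 in distal GWTT and 15521 to 25711 in distal GS4T cells. In proximal GA3T cells it was 12751 to 18664 against 5600 to 7772 in GWTT. In distal GA3T cells, where Has2 overlapped between the groups, it was 19422 to 19862 against 17510 to 18418 in GWTT. The part of these markers in the Has2 values was not tested.

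The segments already differed in controls. Per length, Has2 stood at 4.02 to 4.21 RPKM, which are reads per kilobase of exon scaled to 1000000 reads of the library, in proximal GWTT cells and at 15.5 to 20.4 in distal GWTT cells. Proximal GS4T cells held 15.9 to 18.2 and distal GS4T cells 12.9 to 16.1, so the proximal knockout libraries lay within or near the distal range. Proximal GA3T cells held 7.83 to 11 and distal GA3T cells 8.48 to 20.5.

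Has2os, an antisense transcript on the strand opposite Has2, was lower in distal GS4T cells at a mean of 50.2 against 127 (change -1.31, limma adjusted p = 0.029) and had a change of 0.30 in proximal cells (limma adjusted p = 0.63). The strand setting of the counting is not given in the sources used here, so reads of both genes cannot be told apart.

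Has3, on chromosome 8 at 106870242 to 106884566, was the lowest synthase in the stromal cells. It was at 35.2 and 45.1 in proximal GWTT cells and at 45.2 and 26.9 in proximal GS4T cells, and at 33.3 and 29.0 against 19.5 and 32.9 in the distal colon. The groups overlapped and the changes of -0.19 and -0.28 had limma adjusted p of 0.81 and 0.71. In GA3T cells Has3 was at 38.1 and 35.5 in the proximal colon and at 29.3 and 23.4 in the distal colon, with changes of -0.18 and -0.42.

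The ratio of the normalized counts of Has1 and Has2 within a library does not depend on the scaling. Has1 over Has2 was 18.2 to 30.2 in proximal GWTT cells, 0.939 to 1.52 in proximal GS4T cells and 1.89 to 6.57 in proximal GA3T cells. In distal cells it was 2.69 to 3.65 in GWTT, 0.573 to 0.836 in GS4T and 3.38 to 5.29 in GA3T cells. In each segment the GS4T libraries had the lowest ratios, and in the proximal colon all knockout libraries lay below both controls.

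**Figure D1:**
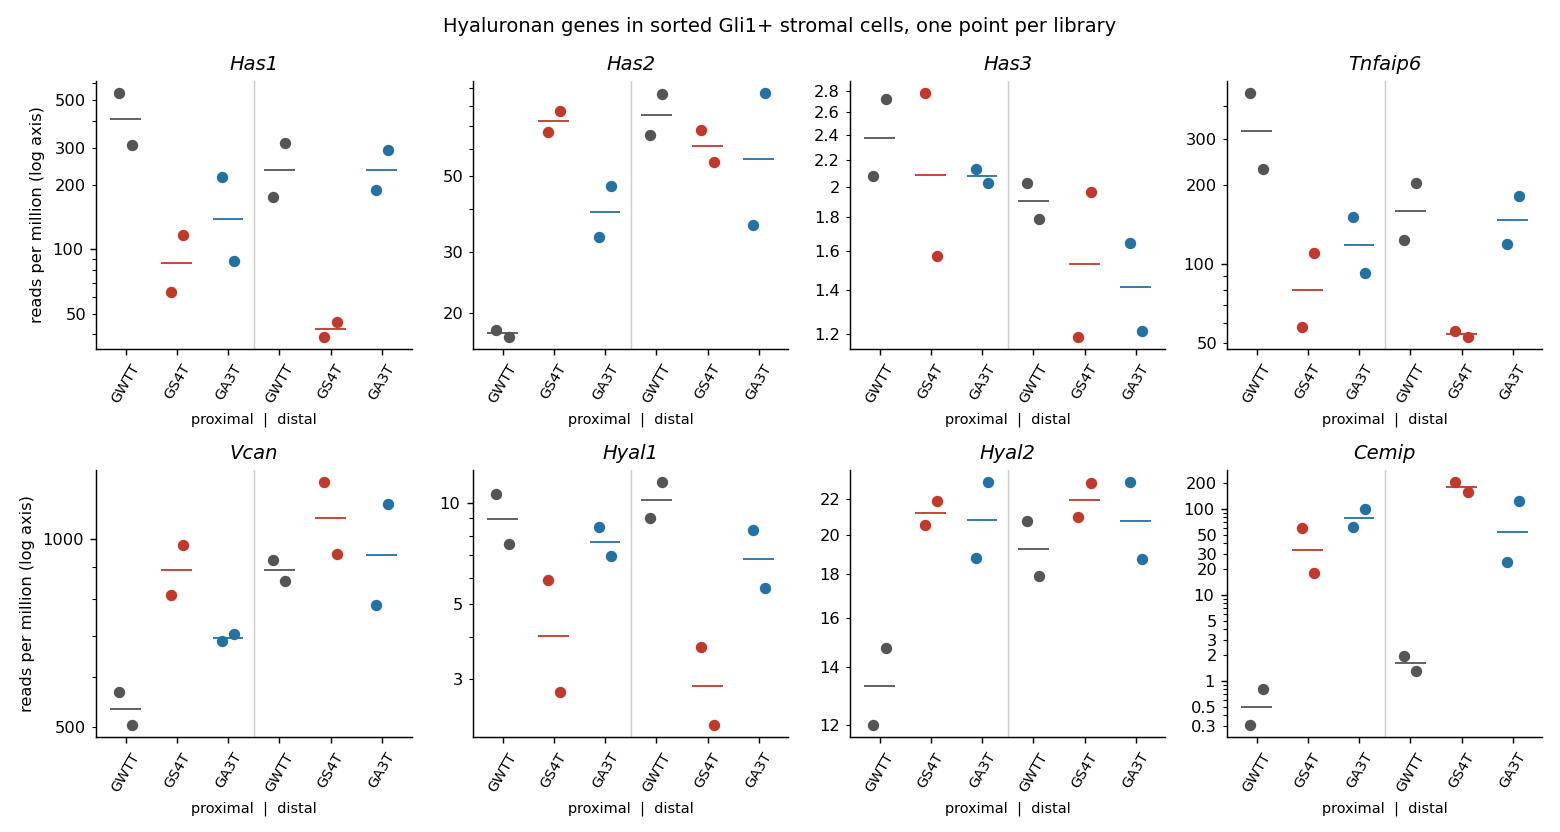
RPM, reads scaled to 1000000 per library, (log axis) of each of the 8 genes in every Gli1+ stromal library, with 1 point per library and a line at the geometric mean, for GWTT, GS4T and GA3T cells of the proximal and distal colon. Cemip is low in the 4 GWTT libraries and high in the 8 knockout libraries, and Has2 is at its lowest in proximal GWTT cells.

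Tnfaip6 encodes TSG-6, a secreted protein that transfers heavy chains onto hyaluronan and so cross-links the chains. It lies on chromosome 2 at 52038009 to 52056686. In the proximal colon Tnfaip6 was at 7546 and 3806 in GWTT and at 939 and 1892 in GS4T cells. Both GS4T libraries were lower than both controls, with a change of -2.01 (SE 0.45, limma adjusted p = 0.044). That call did not last under edgeR, at adjusted p = 0.051, or without GWTT Proximal 1, at 0.054, GS4T Proximal 1, at 0.18, or GS4T Proximal 2, at 0.085.

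In the distal colon Tnfaip6 was at 2021 and 3318 in GWTT and at 911 and 887 in GS4T cells, a change of -1.53 (SE 0.23, limma adjusted p = 0.0091). It was lost without GS4T Distal 1, at -1.55 with adjusted p = 0.053. GA3T cells held Tnfaip6 at 2704 and 1627 against 7939 and 4001 in the proximal colon, a difference of -1.43, and at 2124 and 3503 against 2306 and 3776 in the distal colon. The distal groups overlapped, with a change of -0.11 and a 95% interval of -0.94 to 0.72.

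Has1 and Tnfaip6 moved together from library to library. Has1 over Tnfaip6 lay between 0.703 and 1.62 in all 12 stromal libraries, a range of 2.30-fold, while Has1 alone covered 14.3-fold and Tnfaip6 alone 8.51-fold. This is a description over libraries that share their controls.

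Immediate early and heat shock genes, which are known to rise in stressed cells and while tissue is dissociated, differed between the same libraries. The summed level of 10 such genes was 11609 to 14225 RPM in proximal GWTT, 4510 to 5186 in proximal GS4T and 6270 to 7597 in proximal GA3T cells. In distal cells it was 8444 to 11325 in GWTT, 4320 to 5595 in GS4T and 8358 to 8376 in GA3T cells. Has1 was at 310 to 540, 63.1 to 117 and 88.4 to 218 RPM in the proximal groups and at 177 to 316, 39.1 to 45.8 and 190 to 294 in the distal groups (GWTT, GS4T and GA3T). All 10 genes had negative changes in proximal GS4T, distal GS4T and proximal GA3T cells, and 6 of 10 were positive in distal GA3T cells. The list was chosen after its values were seen, and its part in the lower Has1 and Tnfaip6 was not tested.

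**Figure D2:**
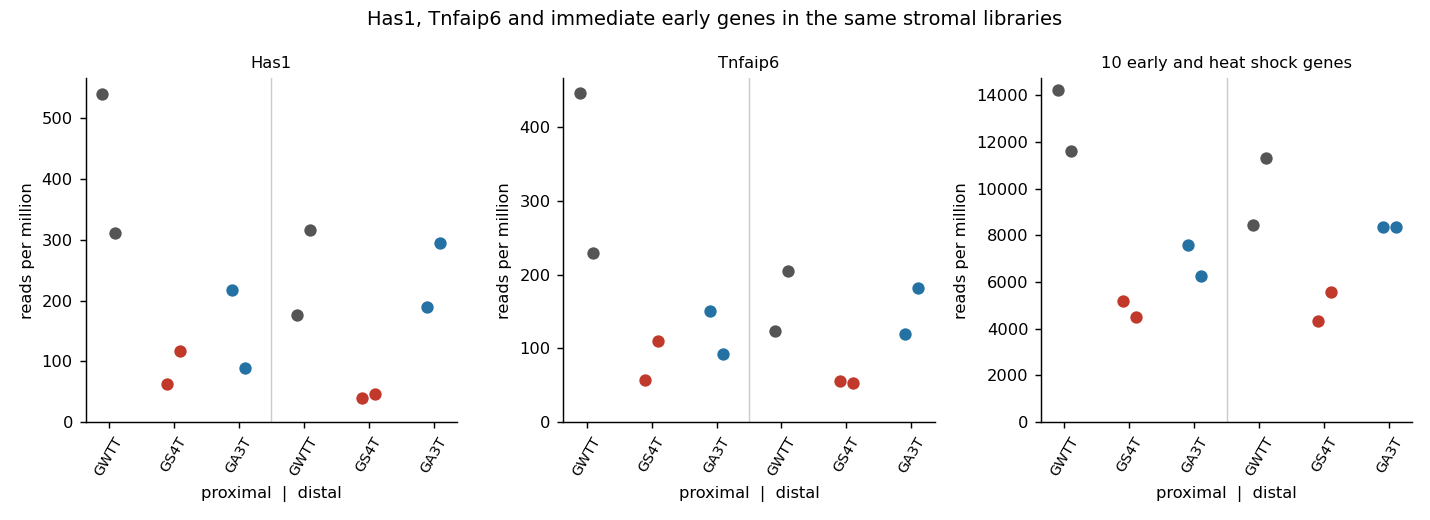
RPM of Has1, Tnfaip6 and the sum of 10 immediate early and heat shock genes in each stromal library (linear axes starting at 0, 1 point per library), by genotype and segment. Distal GS4T libraries lie below all other distal libraries in the 3 panels. In the proximal colon the GS4T and GA3T libraries overlap for Has1 and Tnfaip6 and lie below the GWTT libraries.

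Vcan encodes versican, a large proteoglycan of the matrix that binds hyaluronan, and lies on chromosome 13 at 89655312 to 89742509 on the minus strand. It was at 9615 and 8340 in proximal GWTT and at 13244 and 16685 in proximal GS4T cells. The change of 0.73 had an adjusted p of 0.047 by limma but was under the fold threshold. In the distal colon Vcan was at 15190 and 13891 against 20216 and 15789, a change of 0.30 (limma adjusted p = 0.26), and in GA3T cells the differences were 0.38 (proximal) and 0.08 (distal).

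Hyal1, an acid-active hyaluronidase of the lysosome, lies on chromosome 9 at 107576927 to 107581710 and shares its strand with the overlapping Naa80 and Hyal3, so its counts are uncertain to that extent. In distal GS4T cells it was at 61.1 and 36.4 against 148 and 188 in GWTT, a change of -1.80 (SE 0.36, limma adjusted p = 0.021). The call was lost without GWTT Distal 1, at adjusted p = 0.084, and without GWTT Distal 2, at 0.13. In the proximal colon Hyal1 was at 180 and 125 in GWTT and at 95.9 and 46.9 in GS4T cells, a change of -1.15 (limma adjusted p = 0.14). In GA3T cells the differences were -0.21 in the proximal colon, where the groups overlapped, and -0.59 in the distal colon (limma adjusted p = 0.33).

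Hyal2, a hyaluronidase held at the cell surface by a lipid anchor, lies on chromosome 9 at 107567945 to 107572779. In proximal GS4T cells it was at 334 and 374 against 203 and 245 in GWTT, a change of 0.66 (limma adjusted p = 0.069), and proximal GA3T cells showed 336 and 404 against 213 and 257. In the distal colon the changes were 0.21 in GS4T (limma adjusted p = 0.42) and 0.10 in GA3T cells.

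Cemip lies on chromosome 7 at 83932857 to 84086502 on the minus strand. In proximal GA3T cells, the choosing contrast, Cemip was at 1107 and 1764 against 5.44 and 14.0 in GWTT, with means of 1436 ± 464 and 9.72 ± 6.06 (SD, n = 2 each). The log2 difference of 7.15 was the 2nd largest of 15346 genes, after Clca4b at 7.53 and before Tcerg1l at 6.94. With the same controls, proximal GS4T cells held 993 and 310 against 5.17 and 13.3, a difference of 5.89 that is given without a test because those control libraries also chose the gene. The lower GS4T library, at 310, and the higher GA3T library, at 1764, were the libraries with few Gli1 reads, and without them the differences were 6.72 and 6.82.

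The distal libraries were not used to choose the gene. Cemip was at 32.3 and 21.3 in distal GWTT and at 3399 and 2675 in distal GS4T cells. Both GS4T libraries were far above the controls, with a change of 6.79 (SE 0.26, 95% interval 6.16 to 7.42, limma adjusted p = 0.00039), and the gene was called in all 11 alternatives. In distal GA3T cells Cemip was at 429 and 2383 against 36.8 and 24.2 in GWTT. Both knockout libraries lay above both controls, with a wide gap between them. The change of 5.03 (SE 0.81, 95% interval 3.00 to 7.07) had an unadjusted p of 0.00126 and an adjusted p of 0.10 by limma and was not called. DESeq2 gave a change of 5.52 with adjusted p = 8.08e-05, and without the male library GA3T Distal 1, which held 429, limma gave 6.27 with adjusted p = 0.0072.

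**Figure D3:**
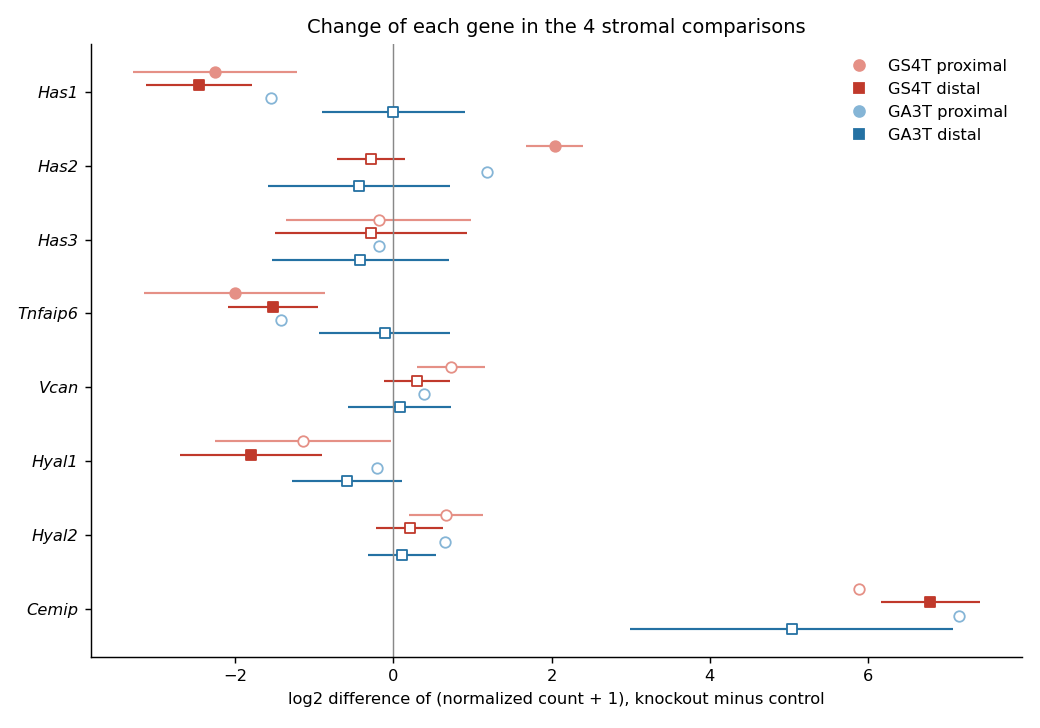
Log2 difference of the normalized count plus 1, knockout minus control, for each gene in the 4 stromal comparisons, with 95% intervals as lines. Filled marks are genes called by limma. The proximal GA3T marks have no interval because that contrast chose the set, and proximal GS4T Cemip has none because it shares those controls. The other proximal GS4T genes are drawn with intervals but share the same controls. Cemip lies between 5.03 and 7.15 in all 4.

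Outside the choosing contrast, 3 of the 7 genes other than Cemip were called in proximal GS4T cells (Has2 higher, Has1 and Tnfaip6 lower). There 9.61% of all genes were called. These proximal tests share their controls with the choosing contrast, so they are not independent of the choice. In distal GS4T cells 4 of 8 were called (Cemip higher, Has1, Tnfaip6 and Hyal1 lower), where 14.0% of all genes were called. In distal GA3T cells limma called 0 of 8 and 0% of the 15414 genes tested. There 1197 genes had an unadjusted p under 0.05 with a change of at least 1 in size. Cemip was the only member of the 8 at an unadjusted p under 0.05. edgeR called 0 genes there and DESeq2 776. The count in proximal GS4T cells was 1 without GS4T Proximal 1 and 1 without GS4T Proximal 2.

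Levels between genes were compared per length. In proximal GWTT cells the mean of RPKM was 198 for Tnfaip6, 94.1 for Has1, 37.0 for Vcan, 4.12 for Has2, 4.06 for Hyal2, 2.41 for Hyal1, 0.376 for Has3 and 0.0453 for Cemip. The Has2 range lay within that of Hyal2. In distal GWTT cells the order was Tnfaip6 at 95.8, Vcan at 61.6, Has1 at 54.5, Has2 at 18, Hyal2 at 5.86, Hyal1 at 2.72, Has3 at 0.299 and Cemip at 0.134, where the Vcan range lay within that of Has1. In distal GS4T cells Cemip reached 15.0, a level near that of Has2 at 14.5.

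Other genes of the hyaluronan pathway were counted as lists. Of 6 hyaluronan receptors, proximal GS4T cells showed 2 called higher and 1 lower, with a median change of 1.05 against 0.02 over all genes, of which 9.61% were called. Lyve1, a receptor of lymphatic vessels and some macrophages, rose from 79.3 to 217 (1.43, limma adjusted p = 0.026), and Hmmr, a receptor linked to cell division, rose from 15.4 to 115 (2.82, adjusted p = 0.016). Stab2, a scavenger receptor of sinus endothelium, fell from 58.7 to 11.3 (-2.37, adjusted p = 0.0499). Cd44 was at 2238 and 4317 with a change of 0.94 (adjusted p = 0.012), under the fold threshold. In distal GS4T cells only Hmmr of the 6 was called (22.3 to 178, 3.15, adjusted p = 0.029), with a list median of 0.54 against 0.00 and 14.0% of all genes called, so that 1 of 6 is near the background.

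Cemip2, a relative of Cemip that cuts hyaluronan at the cell surface, rose in both segments of GS4T. It went from 117 to 454 in the proximal colon (1.95, limma adjusted p = 0.0071) and from 212 to 710 in the distal colon (1.72, adjusted p = 0.0050), as 1 of 5 and 1 of 4 other hyaluronidases tested. The medians of that list were -0.17 and 0.29. Of the other hyaluronan-binding proteins, 1 of 8 was higher and 2 lower in the proximal colon (median -0.62), and 1 of 9 was higher and 2 lower in the distal colon (median 0.75). These counts, and those of the hyaluronidases, stand beside 9.61% of all genes called in proximal GS4T cells and 14.0% in distal ones.

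Hapln1, a link protein that fixes proteoglycans to hyaluronan, fell from 270 to 30.3 (-3.18, limma adjusted p = 0.015) and from 1461 to 59.2 (-4.65, adjusted p = 0.0012) in proximal and distal GS4T cells. Itih5, of the inter-alpha-trypsin inhibitor heavy chain family, fell from 14572 to 6866 (-1.09, adjusted p = 0.0091) and from 12152 to 2717 (-2.17, adjusted p = 0.00098). Itih3 was higher in the proximal colon (2.12, adjusted p = 0.0086) and Ptx3, a pattern recognition protein that joins TSG-6 in the matrix, in the distal colon (275 to 579, 1.05, adjusted p = 0.026). None of 10 genes for sugar precursors of hyaluronan was called in either segment of GS4T, with medians of -0.30 and 0.13. In distal GA3T cells limma called 0 of 15414 genes, so no pathway list could have a called gene there.

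The genes with the levels most like Cemip over the 12 stromal libraries were found by Pearson correlation of log2 RPM plus 1 among 11443 genes. They were Smox (r = 0.980), Adamts7 (0.980), Il1rl1 (0.975), Nt5dc2 (0.974) and Kpna6 (0.974). The 12 libraries fall into controls and knockouts, and the correlation spans that split and shared controls. Cemip was at 0.306 to 1.97 RPM in controls and at 18.1 to 207 in knockouts, Il1rl1 at 4.26 to 9.23 and 64.3 to 460, and Smox at 18.8 to 24.7 and 42.8 to 153.

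Goblet cells were checked by their markers first. The summed level of 7 goblet markers in GWTM2 cells was 517920 to 581329 normalized counts in the proximal colon, and that of 9 stromal markers was at most 637 in any goblet library. Of these 9, 2 had a row in each GS4M2 table, 7 in the proximal and 3 in the distal GA3M2 table. In GA3M2 cells the goblet sum was lower, at 181458 to 232460 against 551439 to 614576 in the proximal colon and at 243042 to 410022 against 601583 to 1098840 in the distal colon. The sum of 8 macrophage markers was higher in GA3M2 cells, at 520 to 789 against 111 to 119 and at 531 to 622 against 76.5 to 128. Adgre1 had no row in either table, and Csf1r had none in the distal table. The part of either list in the GA3M2 values below was not tested. Has1, Has2 and Tnfaip6 had no row in any goblet table, and Cemip had a row only in the GA3M2 tables. In the proximal colon Cemip was at 9.06 and 10.2 in GA3M2 cells against 9.14 and 3.42 in GWTM2 cells. In the distal colon it was at 5.87 and 30.7 in GA3M2 cells against 11.5 and 0 in GWTM2 cells. Hyal2 had the highest level per length of the 8, at 10.3 to 13 RPKM in GWTM2 cells, above the 3.64 to 6.30 of GWTT stromal cells.

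Hyal2 in proximal GS4M2 goblet cells was at 877 and 1008 against 729 and 641 in GWTM2, a change of 0.46 (95% interval 0.14 to 0.77, limma adjusted p = 0.18). In GA3M2 proximal cells it was at 1101 and 1035 against 776 and 678, a change of 0.56 (95% interval 0.13 to 0.98, limma adjusted p = 0.26). The distal values were 753 and 901 against 735 and 614 in GS4M2 (0.29) and 955 and 659 against 703 and 592 in GA3M2 (0.30). None of the 4 genes tested in each table was called, where 0.325%, 0%, 0.0899% and 0% of all genes were called in proximal and distal GS4M2 and proximal and distal GA3M2 cells. edgeR and DESeq2 also called 0 of these genes in each table. At an unadjusted p under 0.05 with a change of at least 1 in size, the tables had 567, 353, 911 and 539 genes in that order.

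Vcan in distal GA3M2 goblet cells was at 19.6 and 16.3 against 47.0 and 92.9, a change of -1.83 (limma adjusted p = 0.33), and without GWTM2 Distal 1, the female library of that table, it was called, at -2.32 with adjusted p = 0.033. Without GA3M2 Proximal 1, Hyal1 at -2.33 (adjusted p = 0.047) and Vcan at -1.76 (adjusted p = 0.045) were called in the proximal colon. Has3 in proximal GS4M2 goblet cells was at 71.5 and 38.7 against 25.8 and 6.48, a change of 1.92 (limma adjusted p = 0.24).

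Untreated organoids were 4 distinct libraries under 6 labels. Control 12h 2 held the same reads as Control 72h 1, and Control 12h 4 the same as Control 72h 4, in 99.98% of the 10058 and 10174 genes with at least 100 reads in either, whereas the highest such share among the other pairs of the 861 compared was 0.677%. Both times therefore share 2 of their 3 controls, and the files do not tell to which time these libraries belong. Each organoid comparison was fitted with these 2 controls and also without them. In the fits without them 1 control remains and is assumed to vary like the treated libraries. Gene values from those fits are given below for some members only, with none for IL-17A at 12 h or for the pathway lists.

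In organoids Tnfaip6 had no row, Has1 had a row only at 72 h of IL-1 with at most 5.48 normalized counts, and Has2 reached at most 14.9. Hyal2 was again the gene with the highest level per length, at 15.0 to 25.8 RPKM in untreated organoids. At 12 h none of 5 genes was called with either cytokine, where 0.0542% of all genes were called with IL-1 and 0.0385% with IL-17A. Has3 after IL-1 for 12 h was at 6.68, 8.5 and 11.2 against 27.2, 25.3 and 14.1, without overlap, with a change of -1.22 and an adjusted p of 0.89 by limma, and against Control 12h 1 alone the change was -1.55 (adjusted p = 0.82). edgeR and DESeq2 also called 0 of the members at 12 h. At an unadjusted p under 0.05 with a change of at least 1 in size, 119 genes were found with IL-1 and 140 with IL-17A. Without the controls that stand under both times, 1 control remained at 12 h, and the change of Vcan with IL-1 was 0.577.

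At 72 h of IL-1, where 23.0% of all genes were called, 1 of 5 members was called. Vcan was at 3.61, 7.97 and 2.19 against 24.8, 14.3 and 20.4, a change of -2.0 (SE 0.59, limma adjusted p = 0.030), at low counts throughout. The call was lost without Control 72h 2 (adjusted p = 0.071), Control 72h 4 (0.11), IL1 72h 1 (0.056) or IL1 72h 3 (0.0871), and Vcan had a mean under the minimum mean without Control 72h 1. Cemip was at 3.61, 92.7 and 45.0 against 4.43, 17.2 and 17.0, a change of 1.16 (adjusted p = 0.43), and without IL1 72h 1 it was called, at 2.44 with adjusted p = 0.035. Without the 2 controls that stand under both times, the Vcan call did not remain: Vcan fell under the minimum mean and was not tested, with all 3 IL-1 libraries still below the 14.3 of Control 72h 2. Cemip was then at 0.58 (limma adjusted p = 0.84). With all 3 controls limma called 2998 genes of the whole table, and 3365 had an unadjusted p under 0.05 with a change of at least 1 in size.

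At 72 h of IL-17A, where 7.94% of all genes were called, none of 5 genes was called by limma, edgeR or DESeq2, with 2688 genes at an unadjusted p under 0.05. Vcan was at 2.24, 15.1 and 2.52 against 24.8, 14.2 and 20.3 (-1.84, limma adjusted p = 0.11), and without IL17a 72h 2 it was called, at -2.59 with adjusted p = 0.013. Against Control 72h 2 alone Vcan was again under the minimum mean and was not tested. Of 9 sugar precursor genes, 4 were called higher with IL-1 at 72 h, where 23.0% of all genes were called. With IL-17A 2 of the 9 were called higher, beside 7.94% of all genes. Gfpt1, which makes the amino sugar for hyaluronan, went from 15722 to 38043 with IL-1 (1.31, adjusted p = 0.010), and Slc35d1, which carries nucleotide sugars, from 820 to 2603 (1.61, adjusted p = 0.0088). With IL-1 at 72 h, Gusb, which removes sugars at the end of breakdown, was lower (-1.02, limma adjusted p = 0.016), as 1 of 4 other hyaluronidases tested. Of 4 receptors tested with IL-1, Hmmr was lower (-2.60, adjusted p = 0.018) and 1 other was called higher. Of 4 other hyaluronan-binding proteins tested, 1 was called higher and 1 lower with IL-1, and 1 lower with IL-17A. These 72 h calls use all 3 controls, of which 2 also stand under a 12 h label. The list genes are not given without those 2 controls, so their calls are not shown to hold without them. With Control 72h 2 and 4 averaged, limma called 2196 genes of the whole table with IL-1 and 2 with IL-17A. With all 3 controls it called 2998 and 1038.

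**Figure D4:**
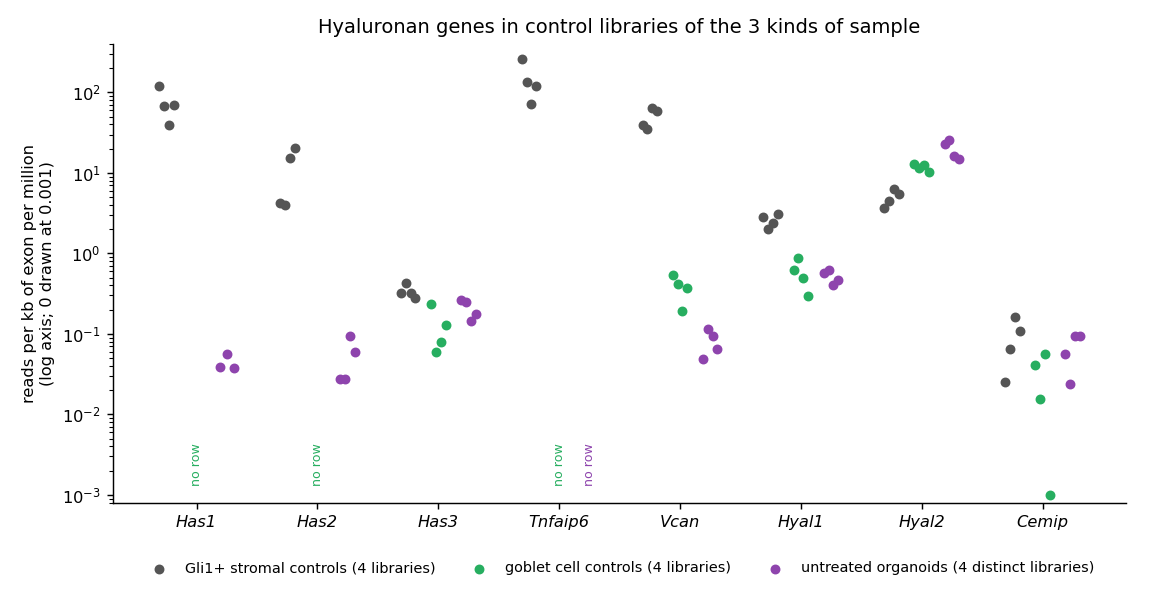
RPKM (log axis, with 0 drawn at 0.001) of the 8 genes in the control libraries of Gli1+ stromal cells, Muc2+ goblet cells and organoids, with 1 point per distinct library. Hyal2 is higher in goblet cells (10.3 to 13) and organoids (15.0 to 25.8) than in stromal cells (3.64 to 6.30), while Has1, Tnfaip6 and Vcan stand highest in stromal cells.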

How the data were processed

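The 8 genes and the gene lists were chosen with earlier results of these data known. All mouse and organoid libraries were RNA-seq. The authors checked reads with FastQC, mapped uniquely to mm10 with STAR 2.5.3 and normalized with DESeq2 1.28.1. The read counter, annotation and strand setting are not given in the sources used here. The deposited signal columns of the 12 tables hold gene counts divided by 1 size factor per library. Every value was a whole multiple of 1 read within 0.1 reads (100% of values), with steps between 0.7516 and 1.26, which gave whole reads for edgeR and DESeq2. Both GS4M2 tables had 4 rows that named no gene and held up to 28.2% of the values, and these rows were left out of tests. Depth was 14222902 to 23686940 reads for stromal, 15647603 to 20783127 for goblet and 14815170 to 17665812 for organoid libraries.

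Each table was fitted alone with limma 3.58.1 on log2(value + 1), which understates the change of low genes, over genes with a mean of at least 10, with Benjamini-Hochberg adjustment over all genes. The segment difference was an interaction term over both GS4T tables. edgeR 4.0.16 (quasi-likelihood test) and DESeq2 1.42.0 were alternatives, with a pseudocount of 10, no filter, rescaling to a common upper quartile, a replicate block, unadjusted p-values and each library left out. Averaging the closest organoid libraries and dropping the 2 organoid controls whose reads stand under both times were added after the data were seen. The closest pairs were IL1 12h 3 and 4, IL17a 12h 3 and 4, and Control 72h 2 and 4. The chi-square per gene between their reads was 3.12 to 3.46, against 28.6 to 235 for other organoid pairs of a group. Libraries of such a pair may therefore not count as separate replicates. The fit was tested on simulated data. The named genes are the 8 members, some of the called genes of the pathway lists and the 5 genes most like Cemip. Other genes named, with the immediate early list, were chosen after their values were seen. Reads per kilobase used union exon lengths of the GRCm38 annotation. Promoter windows came from RefSeq with GRCm38, with 6 of 8 genes matched. The tables held no columns of the authors' own comparisons, and libraries were grouped by their titles.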

Additional observations from a re-analysis of the deposited data

Results flagged for a closer look

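The Has2 response to Smad4 loss in Gli1+ cells differed between colon segments: the change in proximal GS4T cells minus that in distal GS4T cells was 2.32 (log2), with groups of 2 libraries each. The libraries are those of the report, so this is no independent evidence, and the GWTT controls of the segments also differed in Has2 level. The limma adjusted p was 0.045, near the threshold, and edgeR gave 0.054. The call was also lost when some single libraries were left out, while the value stayed between 2.13 and 2.51.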

How the results depend on the processing

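Distal GS4T calls of Cemip and Has1 and the proximal GS4T call of Has2 held under all alternatives. The number of members called in proximal GS4T cells was 3 and fell to 1 without a GS4T library (range 1 to 3 over leave-outs). The Cemip difference in proximal GA3T cells moved from 7.15 to 6.19 with a pseudocount of 10. In distal GA3T cells DESeq2 and the unadjusted p each called 1 member, with 0 to 1 over leave-outs, and Has1 was 0.00166 under upper-quartile rescaling. Unadjusted p called 1 member in proximal GS4M2 and distal GA3M2 goblet cells and with IL-1 at 12 h and IL-17A at 72 h, and leave-outs gave 0 to 2 in proximal GA3M2, 0 to 1 in distal GA3M2 and 0 to 1 in both 72 h comparisons. For IL-1 at 72 h averaging the closest libraries called 0, as did dropping the controls that stand under both times, where Vcan had a mean under the minimum, and with IL-1 at 12 h Vcan turned to 0.577. The segment difference called 0 members with edgeR and 0 to 1 over leave-outs. The cause of these changes was not tested.

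Replicate numbers share only a number, and same-numbered libraries deviated together with correlations of 0.0965 to 0.191 in stromal, -0.0573 to 0.302 in goblet and -0.186 to 0.637 in organoid tables. With the replicate block IL-1 at 72 h called 0 members, since Vcan was at -1.63 with adjusted p = 0.28, and changes of genes not called reversed to 0.104 for Hyal1 and 0.0489 for Hyal2 (IL-1, 12 h), -0.229 for Cemip (IL-17A, 12 h) and -0.300 for Has3 (IL-1, 72 h). For IL-17A at 72 h, Cemip turned to 0.219 with edgeR, 0.244 with DESeq2 and 0.151 with averaged libraries, where Hyal2 was -0.0214.

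Leave-outs turned the sign of small changes in these ranges: Has3 in GS4T, proximal -0.548 to 0.178 and distal -0.647 to 0.0789. In distal GA3T cells Has1 was -0.416 to 0.405, Has2 -1.13 to 0.260, Hyal2 -0.0128 to 0.219, Tnfaip6 -0.474 to 0.247 and Vcan -0.249 to 0.404. In distal GS4M2 cells Has3 was -0.260 to 1.04 and Vcan -0.738 to 0.217, and in distal GA3M2 cells Hyal1 was -0.337 to 0.526. In organoids Vcan was -0.428 to 0.434 (IL-1, 12 h) and -0.252 to 0.324 (IL-17A, 12 h), Hyal1 -0.418 to 0.0591 (IL-17A, 12 h), Has3 -0.118 to 0.427 (IL-1, 72 h), and with IL-17A at 72 h Cemip was -0.713 to 0.364 and Hyal2 -0.0412 to 0.355.

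The count of called genes over a whole table depended on the setting. DESeq2 called 776 in distal GA3T cells (0 by limma), 270 in proximal GS4M2 (43), 147 in distal GS4M2 (0), 431 in proximal GA3M2 (12), 240 in distal GA3M2 (0), 43 with IL-1 (7) and 51 with IL-17A (5) at 12 h and 2311 with IL-17A at 72 h (1038). edgeR called 2 with IL-1 at 12 h and 1 for the segment difference (29), which was 16 after rescaling. The replicate block called 62, 260, 699 and 4 in distal GA3T, proximal GS4M2, proximal GA3M2 and distal GA3M2 cells, 100 and 120 at 12 h, and 1513 (2998) and 4 at 72 h with IL-1 and IL-17A. Dropping those controls called 2 and 2 at 12 h and 1 and 4 at 72 h with IL-1 and IL-17A. Averaging called 0, 2 and 2 with IL-1 and IL-17A at 12 h and IL-17A at 72 h. A pseudocount of 10 called 11 in distal GA3T, 27 in proximal GA3M2 and 15 with IL-17A at 12 h, and no filter 20 in proximal GA3M2 cells. Leave-outs called 119 to 2154 genes in proximal (1472) and 1194 to 1915 in distal GS4T cells (2130), 0 to 749 in distal GA3T (highest without GA3T Distal 1), 18 to 153 in proximal and 0 to 232 in distal GS4M2 (both highest without the first GWTM2 library), 1 to 1036 in proximal GA3M2 (highest without GA3M2 Proximal 1) and 0 to 638 in distal GA3M2 cells (highest without GWTM2 Distal 1). In organoids they called 0 to 5 with IL-1 and 2 to 4 with IL-17A at 12 h, and at 72 h 2078 to 3396 with IL-1 and 3 to 3577 with IL-17A (highest without IL17a 72h 2), and for the segment difference 0 to 83 (highest without GWTT Proximal 2). With 2 libraries a group, a change that misses the threshold is not shown to be absent.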
